A study of Mus musculus with 30 samples.

Results

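The abdominal aortas of mice given gastrodin or valsartan during an angiotensin II infusion were compared directly, with 5 libraries per compound taken by their group labels (10 of the 30 libraries of the series). All mice were wild-type C57BL/6 animals, and the labels used here give neither age nor sex. Both groups received Angiotensin-II at 500 ng/kg/min for 28 days, so the infusion was common to them. The gastrodin group (AngII+GAS) also received gastrodin at 5 mg/kg/day and the valsartan group (AngII+VAL) valsartan at 10.4 mg/kg/day. The doses differed, and what belongs to the compound and what to its dose cannot be told apart. Libraries from mice given saline (Control, 5) or the infusion alone (AngII, 5) are shown as reference levels.

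Angiotensin II acts on smooth muscle cells of the arterial wall mainly through its type 1 receptor, a G-protein-coupled receptor that raises intracellular calcium and drives contraction and, over weeks, growth and matrix deposition. Valsartan blocks that receptor. Gastrodin is a phenolic glucoside of the orchid Gastrodia elata and is not known as a receptor blocker of that kind. The abdominal aorta lies against the vertebral column and the muscles beside it, close to the kidneys, and is wrapped in adventitia and brown and white fat, so RNA of a dissected segment comes from many cell types. In such bulk samples, fewer cells of a type and less RNA per cell cannot be told apart.

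The aortas of both groups were alike over most of the transcriptome. Values are FPKM (fragments per kilobase of transcript, scaled to sequencing depth) summed per gene over the transcripts listed for both groups, and differences are on the log2(FPKM + 1) scale, gastrodin minus valsartan, which understates changes of low genes. Of 11826 genes tested, 13 (0.110%) passed an adjusted p of 0.05 in limma. Of these, 2 were higher (0.0169%) and 11 lower (0.0930%) with gastrodin. At an unadjusted p below 0.05 there were 743 genes (6.28%), 306 of them higher (2.59%) and 437 lower (3.70%). The ranges of the groups did not overlap for 209 genes (1.77%), of which 68 (0.575%) were higher and 141 (1.19%) lower with gastrodin.

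Similarity was tested as well as difference. For each gene, a pair of one-sided tests asked whether the difference lay inside 2-fold in either direction (a log2 margin of 1), adjusted over all genes. Of the 7044 genes with a mean of at least 5 FPKM, 5776 (82.0%) were shown to lie within 2-fold, and of all tested genes 9563 (80.9%). The 82.0% is the share to set beside the counts of list members below. Another 1261 of the 7044 genes were neither called different nor shown to lie within 2-fold, so the data leave their difference undetermined at this size. The estimate itself was under 1.5-fold for 6470 of the 7044 genes (91.9%) and over 2-fold for 174, of which 53 were higher and 121 lower with gastrodin. The median difference over all genes was -0.04 (quartiles -0.19 and 0.10), and 58.1% of genes were lower with gastrodin. Across the 11826 genes, the group means had a Pearson r of 0.974 on the log2 scale, a description in which the genes share the same 10 libraries.

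**Figure D1:**
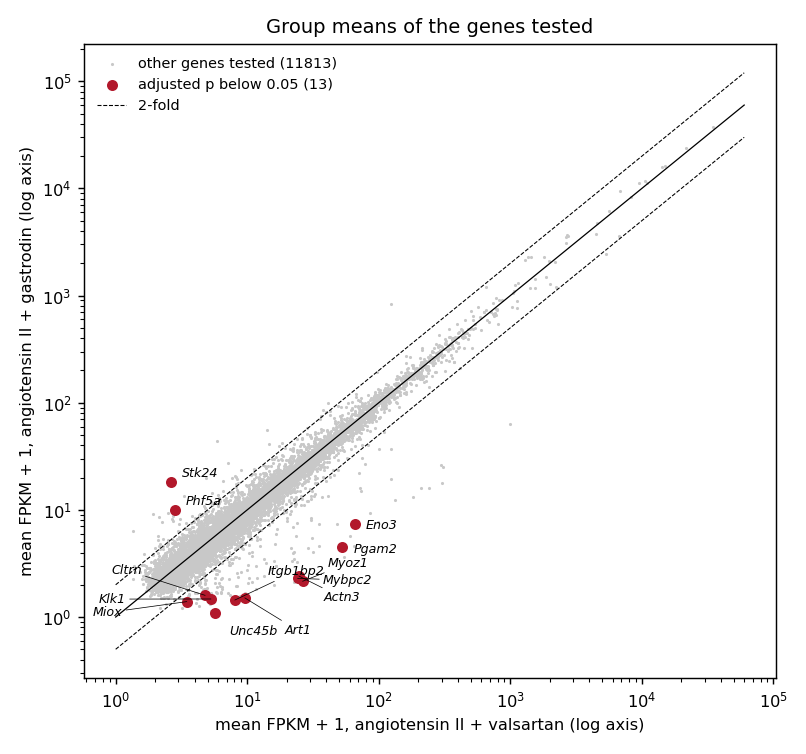
Mean FPKM + 1 of each gene tested with angiotensin II + valsartan (x, log axis) against angiotensin II + gastrodin (y, log axis). Most points lie between the dashed 2-fold lines, and the 13 genes past the threshold (red) have a mean below 70 FPKM in both groups.

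The libraries did not separate by compound. Pairwise correlations over genes had a median of 0.902 within the gastrodin group (0.882 to 0.934), 0.925 within the valsartan group (0.909 to 0.934) and 0.906 between the groups (0.874 to 0.931). Gastrodin libraries 2 and 5 and valsartan library 3 were each most like a library of the other compound. The reads behind the values were 73.1 to 78.8 M per gastrodin library and 74.3 to 79.8 M per valsartan library, and mitochondrially encoded genes took 13.6% to 25.2% and 13.7% to 23.8% of the FPKM.

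The 2 genes higher with gastrodin were Stk24 and Phf5a. Stk24 encodes a serine/threonine kinase of the STE20 family, and lies on the minus strand of chr14:121286343-121380011 (mm10). Its level was 7.65, 25.8, 14.7, 15.5 and 21.7 FPKM in gastrodin libraries 1 to 5 and 0.74, 1.66, 1.89, 1.51 and 2.39 FPKM in valsartan libraries 1 to 5. Every gastrodin library lay above every valsartan library, with means of 17.1 ± 6.96 and 1.64 ± 0.603 FPKM (SD, n = 5 each), a ratio of 10.4. The log2 difference was 2.71 (SE 0.30, adjusted p = 0.0154 in limma). The saline libraries held both levels, with 0.927, 1.80 and 1.75 FPKM in libraries 1, 2 and 5 and 19.7 and 21.2 FPKM in libraries 3 and 4, while the 5 libraries of the infusion alone had 6.88 to 17.4 FPKM. So the level that valsartan libraries showed also occurred in 3 of 5 saline libraries. The whole value of Stk24 came from 1 listed transcript of 2676 bases, ENSMUST00000079817, and rests on how the authors' quantifier divided reads among isoforms.

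Phf5a encodes a subunit of the SF3b complex, which recognises the branch point in pre-mRNA splicing. It had 10.9, 8.49, 9.74, 10.4 and 5.34 FPKM in the gastrodin libraries and 1.81, 2.26, 1.08, 0.613 and 3.29 FPKM in the valsartan libraries. The groups did not overlap, and the means of 8.96 ± 2.21 and 1.81 ± 1.04 FPKM differed by 1.88 on the log2 scale (SE 0.28, adjusted p = 0.0421 in limma). Saline libraries again spanned both levels, from 0.732 to 11.9 FPKM. The difference lay in its coding transcript ENSMUST00000023117 (7.75 ± 2.02 against 1.06 ± 1.00 FPKM), while a noncoding transcript of Phf5a had 1.21 ± 1.08 and 0.75 ± 0.18 FPKM.

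Among genes whose higher mean reached 5 FPKM, another 4 had the smallest p in this direction without passing. Rps6kb1, the S6 kinase that acts below mTOR complex 1, had 7.19 ± 2.88 FPKM with gastrodin and 1.67 ± 0.425 with valsartan (1.54, SE 0.27, adjusted p = 0.0677). Without gastrodin library 1, its lowest, the difference of Rps6kb1 was 1.78 with an adjusted p of 0.0150. In the saline libraries Rps6kb1 stood at 8.06 to 10.4 FPKM, and with the infusion alone at 1.89 to 10.3 FPKM. Lrrfip2, which binds MyD88 in Toll-like receptor signalling, had 10.8 ± 1.92 and 4.33 ± 1.79 FPKM (1.20, adjusted p = 0.0750), and its groups did not overlap either. The pseudogenes Dnajc19-ps (0.80) and Gm10029 (0.81) each had an adjusted p of 0.0798, and reads shared with their parent genes make these values uncertain.

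The 11 genes lower with gastrodin fell into a set of 8 genes of striated muscle and a set of 3 genes of kidney tubule. The muscle genes were Eno3, Pgam2, Myoz1, Mybpc2, Actn3, Art1, Itgb1bp2 and Unc45b. Unc45b, Klk1, Miox and Cltrn had means under 5 FPKM in both groups, fell outside the rule for named genes and were named after their values were seen. Unc45b, Itgb1bp2 and Klk1 stayed below 1 FPKM in every gastrodin library. They met the filter of 1 FPKM in 5 or more libraries only through the valsartan libraries, where they were high.

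**Figure D2:**
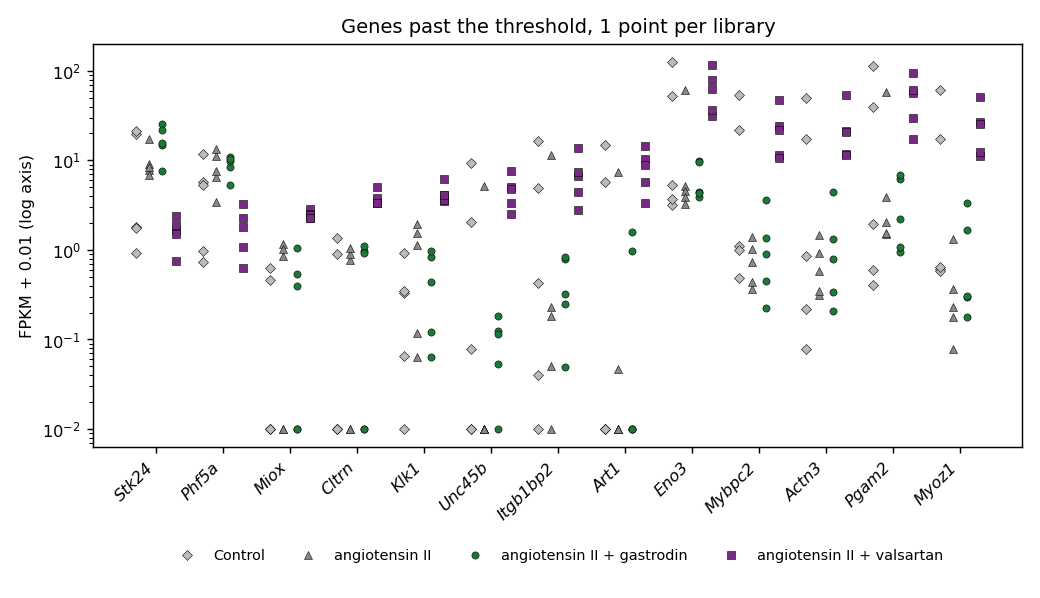
FPKM + 0.01 (y, log axis) of the 13 genes past the threshold in each library of 4 groups. Valsartan libraries (squares) lie below gastrodin libraries (circles) for Stk24 and Phf5a and above them for the other 11 genes, and saline libraries 1 and 2 reach the valsartan range for the muscle genes other than Unc45b in library 1 (2.04 FPKM).

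Eno3 encodes the muscle form of the glycolytic enzyme enolase. Its level was 9.89, 3.90, 9.68, 4.38 and 4.29 FPKM with gastrodin and 116, 62.5, 31.6, 78.2 and 37.0 FPKM with valsartan. The lowest valsartan library was above the highest gastrodin library, and the difference was -3.09 (SE 0.38, adjusted p = 0.0270 in limma, a ratio of 10.1). Pgam2, the muscle phosphoglycerate mutase of the same pathway, had 6.27, 2.19, 6.90, 0.946 and 1.06 FPKM against 94.7, 56.4, 17.4, 61.8 and 29.7 FPKM. Its means were 3.47 ± 2.89 and 52.0 ± 30.1 FPKM (-3.60, SE 0.54, adjusted p = 0.0421). For both genes valsartan library 1 was the highest and library 3 the lowest of its group.

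The sarcomere genes also had their highest values in valsartan library 1. Myoz1, a calcineurin-binding protein of the Z-disc of fast fibres, had 1.67, 0.288, 3.36, 0.169 and 0.295 FPKM with gastrodin and 50.9, 26.8, 11.2, 25.4 and 12.5 FPKM with valsartan (-3.62, SE 0.48, adjusted p = 0.0371). Mybpc2, the fast myosin-binding protein C, had 1.30 ± 1.34 and 23.2 ± 15.0 FPKM (-3.36, adjusted p = 0.0371). Actn3, the fast-fibre alpha-actinin, had 1.41 ± 1.75 and 23.7 ± 17.1 FPKM (-3.37, adjusted p = 0.0421). Within the gastrodin group, libraries 1 and 3 were the highest for Myoz1, Mybpc2, Actn3, Eno3 and Pgam2.

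The other 3 muscle genes were less abundant. Unc45b, a chaperone of muscle myosin, had 0 to 0.173 FPKM with gastrodin and 2.49 to 7.59 FPKM with valsartan, with the smallest p of all genes (-2.31, SE 0.22, adjusted p = 0.00875). Art1, an ADP-ribosyltransferase of the muscle surface, was listed at 0 in 3 gastrodin libraries and had 3.34 to 14.7 FPKM with valsartan (-2.66, adjusted p = 0.0421). Itgb1bp2 (melusin), which binds the integrin beta-1 tail in striated muscle, had 0.0390 to 0.829 and 2.80 to 13.9 FPKM (-2.36, adjusted p = 0.0421).

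The kidney set had Klk1, tissue kallikrein, at 0.818, 0.111, 0.961, 0.0537 and 0.426 FPKM with gastrodin and 6.13, 4.12, 3.51, 3.62 and 4.10 FPKM with valsartan. The groups did not overlap, and the difference was -1.87 (SE 0.21, adjusted p = 0.0154 in limma). Klk1 belongs to a family of close paralogs, so its value is uncertain. Miox, the myo-inositol oxygenase of the proximal tubule, had 0 to 1.05 against 2.27 to 2.89 FPKM (-1.37, adjusted p = 0.0421). Cltrn (collectrin), an amino acid transport protein of the proximal tubule, had 0 to 1.10 against 3.35 to 5.00 FPKM (-1.65, adjusted p = 0.0421). In the libraries of the infusion alone and of saline, Klk1 stayed between 0 and 1.96 FPKM, below every valsartan library.

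The number of calls hung on single libraries. It went to 0 without gastrodin library 2 or 5 or without valsartan library 2 or 4, and to 3 higher and 70 lower genes without valsartan library 3, the one with the least muscle RNA of its group. With the others left out there were 2 higher and 11 lower (gastrodin 1), 1 and 18 (gastrodin 3), 2 and 3 (gastrodin 4), 1 and 2 (valsartan 1) and 3 and 5 genes (valsartan 5). The 13 genes kept their direction in all these fits. Stk24 lost its call without gastrodin library 2 (adjusted p = 0.0530) or 5 (adjusted p = 0.0563) and without valsartan library 2 (adjusted p = 0.0743) or 4 (adjusted p = 0.0558). Over 25 alternative fits, including these, Stk24 passed in 17 and Phf5a in only 7. The 11 lower genes passed in 6 (Actn3) to 16 (Unc45b) of the 24 or 25 fits that held them.

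The promoters of the called genes are shown as sequence only. RefSeq (GRCm38.p6) gave a promoter for 8 of the 13 genes. Those printed are the 120 bases before the annotated start of Eno3, Pgam2, Art1, Unc45b and Miox, read 5′ to 3′ on the strand of the gene. Capitals mark CANNTG (the general form of the E-box, of which MyoD family factors bind only some versions), the MEF2 motif and TATAAA, searched on both strands.
Eno3 promoter: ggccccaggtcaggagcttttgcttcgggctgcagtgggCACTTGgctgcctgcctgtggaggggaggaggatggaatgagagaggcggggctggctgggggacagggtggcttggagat
Pgam2 promoter: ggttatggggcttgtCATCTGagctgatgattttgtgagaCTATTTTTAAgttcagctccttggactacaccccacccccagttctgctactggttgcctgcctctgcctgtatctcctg
Art1 promoter: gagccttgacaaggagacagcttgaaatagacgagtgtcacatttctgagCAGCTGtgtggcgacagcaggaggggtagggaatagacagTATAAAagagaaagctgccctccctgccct
Unc45b promoter: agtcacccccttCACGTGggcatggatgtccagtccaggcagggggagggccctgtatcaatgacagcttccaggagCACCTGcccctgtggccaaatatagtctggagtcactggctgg
Miox promoter: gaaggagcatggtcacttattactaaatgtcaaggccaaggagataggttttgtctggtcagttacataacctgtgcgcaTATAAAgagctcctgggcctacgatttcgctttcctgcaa
The sequences lie at chr11:70657056-70657175 (Eno3), chr11:5803797-5803916 (Pgam2, minus strand), chr7:102101623-102101742 (Art1), chr11:82911133-82911252 (Unc45b) and chr15:89334353-89334472 (Miox). Pgam2 held 1 MEF2 match, and Art1 held CAGCTG, a form of CANNTG, beside TATAAA. In the 250 bases before the start of all 32851 RefSeq promoters, CANNTG occurred in 66.2%, CAGCTG in 13.0%, TATAAA in 12.4% and MEF2 in 2.92%. In that window all 5 muscle genes with a promoter held CANNTG, with 5 matches for Pgam2, 2 for Unc45b and 1 each for Eno3, Mybpc2 and Art1. The kidney genes Klk1 and Cltrn held CANNTG as well, with 2 matches before each annotated start, and Miox held 0. These matches describe letters in the window and say nothing of binding.

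Markers of skeletal muscle separated the groups as a whole. The marker score, the mean log2(FPKM + 1) of the 17 listed of 19 members, was 3.50, 2.11, 3.86, 0.84 and 1.24 in gastrodin libraries 1 to 5 and 6.27, 5.65, 4.56, 5.72 and 5.47 in the valsartan libraries. No gastrodin library reached the lowest valsartan library. The infusion alone gave 0.76 to 2.16, and saline gave 5.16 and 6.30 in libraries 1 and 2 but 1.01 to 1.74 in the other 3. So muscle marker RNA as high as in the valsartan group was present in 2 saline aortas.

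All 16 muscle markers tested were lower with gastrodin, with a median of -4.08 against -0.04 over all genes, and 3 of them passed the test (Eno3, Myoz1 and Actn3). Their summed level was 25.7 to 398 FPKM with gastrodin and 864 to 4639 FPKM with valsartan. The most abundant marker, skeletal alpha-actin Acta1, had 2.07 to 141 FPKM with gastrodin and 316 to 1903 FPKM with valsartan (-4.95, SE 1.03, adjusted p = 0.102). Creatine kinase Ckm was at 12.2 ± 12.5 and 180 ± 119 FPKM and did not pass either (-4.11, adjusted p = 0.0677), though neither gene's ranges overlapped between the groups.

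Of 14 kidney markers, 6 were listed in both groups and 4 were tested, of which 3 were lower with gastrodin. Kap, an androgen-regulated protein of the proximal tubule and the most abundant of them, had 24.9, 1.57, 27.8, 0 and 15.5 FPKM with gastrodin and 92.1, 65.6, 70.5, 66.4 and 68.9 FPKM with valsartan. All valsartan libraries were higher, but Kap did not pass (-3.20, SE 0.87, adjusted p = 0.272), and Slc34a1, the phosphate transporter, narrowly missed the threshold (-1.97, adjusted p = 0.0514). Nphs1, nephrin of the podocyte, was the exception at 3.44 to 6.22 FPKM with gastrodin and 0 to 2.94 FPKM with valsartan (1.74, adjusted p = 0.2). The summed level of the list was 3.57 to 35.1 FPKM with gastrodin, 75.9 to 104 with valsartan, 0.976 to 48.3 with the infusion alone and 6.16 to 26.2 with saline. Kap made up most of that sum in the means of both compounds. The score, which weights the markers equally, was 1.91 to 2.22 with valsartan and 0.39 to 1.75 with gastrodin, but infusion-only libraries 3 and 5 had 2.17 and 2.30, within and above the valsartan range. Umod and Slc12a1, which define the loop of Henle, were outside the lists of transcripts shared by the groups.

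With the muscle score of each library as a term in the model, no gene passed in either direction (559 at an unadjusted p below 0.05), and 1638 genes of at least 5 FPKM were still shown to lie within 2-fold. The score did not overlap between the groups, so the term and the compound cannot be told apart in these 10 libraries. The part of muscle or kidney RNA in the other differences was not tested.

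**Figure D3:**
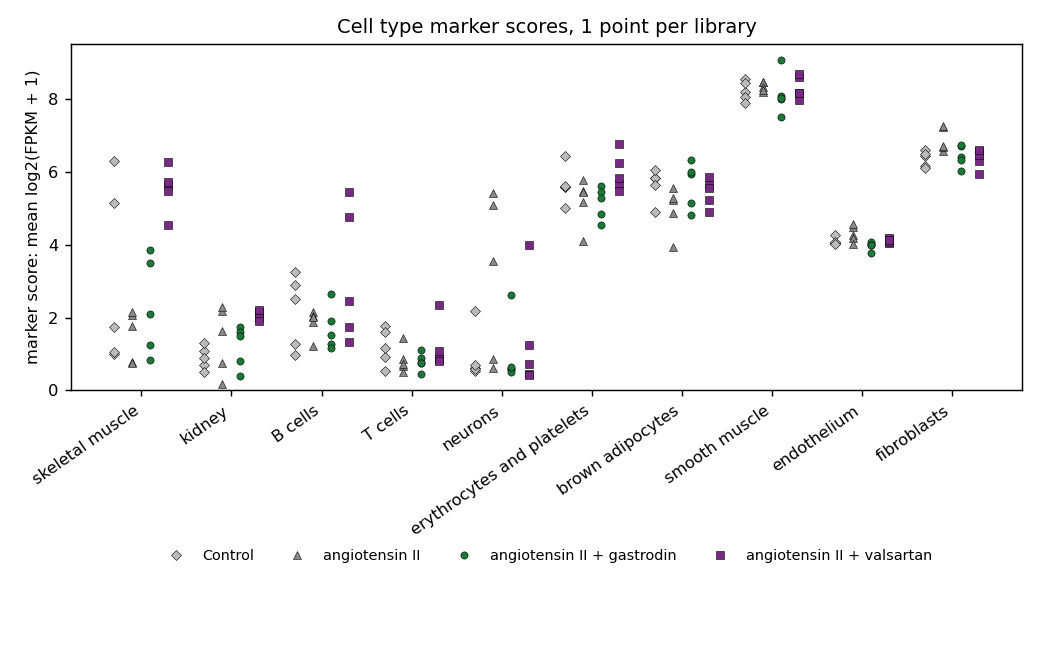
Marker score (mean log2(FPKM + 1) of the listed markers, y) of 10 cell types in each library of 4 groups (x). The skeletal muscle and kidney scores of the valsartan libraries (squares) lie above all gastrodin libraries (circles), while smooth muscle, endothelium and fibroblast scores overlap.

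Marker scores of the vessel itself overlapped between the groups. The score of smooth muscle was 7.52 to 9.07 with gastrodin and 7.97 to 8.68 with valsartan, of endothelium 3.77 to 4.08 and 4.04 to 4.19, and of fibroblasts 6.02 to 6.75 and 5.94 to 6.61. The summed endothelial markers did not overlap, at 185 to 237 FPKM with gastrodin and 239 to 253 FPKM with valsartan. Of 12 endothelial markers tested, 9 were lower with gastrodin and 3 higher, with a median of -0.09 and 0 calls. Markers of these 3 cell types were above 0 in every library. Since only transcripts above a mean level were listed, that was nearly assured and does not by itself identify the tissue. All 12 fibroblast markers, 8 of 11 endothelial and 6 of 8 smooth muscle markers of at least 5 FPKM were shown to lie within 2-fold. The share over all genes of that level was 82.0%, above those of the endothelial and smooth muscle markers.

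In the renin-angiotensin system, on which valsartan acts, no gene passed, and all 9 members of at least 5 FPKM were shown to lie within 2-fold. Agtr1a, the type 1 receptor that valsartan blocks, had 5.20, 5.39, 3.47, 3.36 and 2.27 FPKM with gastrodin and 3.07, 2.94, 4.0, 8.15 and 2.67 FPKM with valsartan. The ranges overlapped widely (and lay at 2.82 to 16.0 FPKM with the infusion alone), and the interval of the difference ran from -0.64 to 0.60 around an estimate of -0.02, shown to lie within 2-fold. With a mean under 5 FPKM, Agtr1a is not among the 9, and the scale understates differences at its level. Ace, the angiotensin-converting enzyme, had 97.2 ± 30.7 and 91.8 ± 25.9 FPKM, with an interval from -0.48 to 0.63. The aminopeptidases Enpep (0.05) and Anpep (0.03), which trim angiotensins, the prorenin receptor Atp6ap2 (-0.18) and the receptor-associated protein Agtrap (-0.06) had estimates of the same small size. Cma1, the mast cell chymase that also makes angiotensin II, had the smallest p of the list (7.35 ± 2.05 and 9.56 ± 1.64 FPKM, -0.36, adjusted p = 0.849). Agt and Ren1 were below the level required for testing.

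Genes of the contractile apparatus leaned to lower values with gastrodin, with 20 of 24 tested members lower and a median of -0.30 against -0.04 over all genes, yet none passed. Acta2, smooth muscle alpha-actin, had 1770, 3342, 3091, 3037 and 7433 FPKM with gastrodin and 3515, 4150, 3754, 5244 and 5716 FPKM with valsartan. Gastrodin library 5 stood above all 9 other libraries, and the remaining 4 gastrodin libraries stood below all valsartan libraries. The difference was -0.40 (SE 0.34, adjusted p = 0.959) with that library and -0.69 (SE 0.24, adjusted p = 0.396) without it. Without library 5 all 24 genes were lower, with a median of -0.47, and without gastrodin library 1, the lowest for Acta2, 19 were lower with a median of -0.17. Without gastrodin libraries 1 and 3 together, a pair chosen after seeing their muscle RNA, 16 were lower and 8 higher. Their median was then -0.06, against -0.06 over all genes in that fit. Other fits widened the lean, with medians of -0.45 with array weights and -0.74 with the muscle score as a term (22 lower in each). With muscle and kidney scores as terms it was -0.78, with all 24 lower. These scores did not overlap between the groups, so their terms and the compound cannot be told apart. Myh11, smooth muscle myosin, showed the same pattern with 861 FPKM in library 5 and 293 to 443 in the other gastrodin libraries, against 433 to 630 with valsartan (-0.15, shown to lie within 2-fold, and 0.01 without gastrodin library 1).

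The member with the smallest p was Des, desmin, the intermediate filament of both smooth and striated muscle. It had 47.3, 44.5, 37.8, 21.4 and 29.2 FPKM with gastrodin and 194, 138, 60.5, 112 and 107 FPKM with valsartan. The groups did not overlap (-1.70, SE 0.31, adjusted p = 0.0750), and Des passed without valsartan library 3 (-1.92, adjusted p = 0.0206). With the muscle score in the model the difference of Des was -0.46 (adjusted p = 0.912). That score did not overlap between the groups, so this fit cannot separate muscle RNA from the compound. In calcium handling, Casq2, calsequestrin of cardiac and slow muscle, had 0.934 ± 0.895 and 7.40 ± 3.69 FPKM (-2.10, adjusted p = 0.0750), while Atp2a2, the pump SERCA2 of smooth muscle and heart, was shown to lie within 2-fold (72.7 ± 15.3 and 101 ± 35 FPKM, -0.41).

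Receptors and signalling genes of vascular tone had no call. Gucy1a1, a subunit of the nitric oxide receptor guanylate cyclase, had 23.0 ± 4.67 and 24.5 ± 4.67 FPKM (-0.09, interval -0.46 to 0.28). Ednra, the endothelin A receptor, had 4.85 ± 1.24 and 4.43 ± 0.573 FPKM (0.09, interval -0.25 to 0.44). Rgs5, a brake on G-protein signalling, had 407 ± 140 and 430 ± 113 FPKM (-0.11). All 3 genes were shown to lie within 2-fold, though Ednra was under 5 FPKM, where the scale understates differences. Nos3, endothelial nitric oxide synthase, was not (2.95 ± 2.09 and 1.64 ± 0.387 FPKM, 0.47, interval -0.15 to 1.08), and its gastrodin value rested on library 2 with 6.63 FPKM against 1.47 to 2.48 in the other 4.

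Extracellular matrix genes had a list median near that of all genes, at -0.06 (-0.22 to 0.07 on leaving out single libraries). Of 40 members, 18 were higher and 22 lower, with estimates from -0.97 to 1.44. Of 38 members of at least 5 FPKM, 22 were shown to lie within 2-fold, a smaller share than the 82.0% over all genes of that level. Col1a1, the main fibrillar collagen, had 244, 537, 186, 245 and 441 FPKM with gastrodin and 191, 207, 266, 385 and 465 FPKM with valsartan. The ranges were nearly the same (0.10, interval -0.68 to 0.88), as were those of Col3a1 (217 to 567 and 216 to 517 FPKM, -0.09). Eln, elastin, had 53.0 to 340 against 184 to 735 FPKM (-0.97, SE 0.56, adjusted p = 0.915), and its interval from -2.22 to 0.27 includes both no difference and a lower level with gastrodin. Fn1, fibronectin, had 116 to 197 FPKM in 4 gastrodin libraries and 630 FPKM in library 5, against 171 to 698 FPKM with valsartan. Its difference was -0.80 with library 5 and -1.23 (adjusted p = 0.309) without it.

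Mmp2, gelatinase A, had the smallest p of the matrix list without passing (50.5 ± 18.6 and 27.4 ± 26.3 FPKM, 1.44, adjusted p = 0.818). It was at 3.83 and 5.17 FPKM in valsartan libraries 2 and 4 and at 24.2 to 67.6 FPKM in the other 3, and 1 saline library had 1.44 FPKM. In TGF-beta signalling, 13 of 17 members of at least 5 FPKM were shown to lie within 2-fold. They included the ligand Tgfb1 (20.8 ± 7.11 and 20.5 ± 5.40 FPKM, 0.00) and the target Ccn2 (597 ± 336 and 449 ± 132 FPKM, 0.29).

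**Figure D4:**
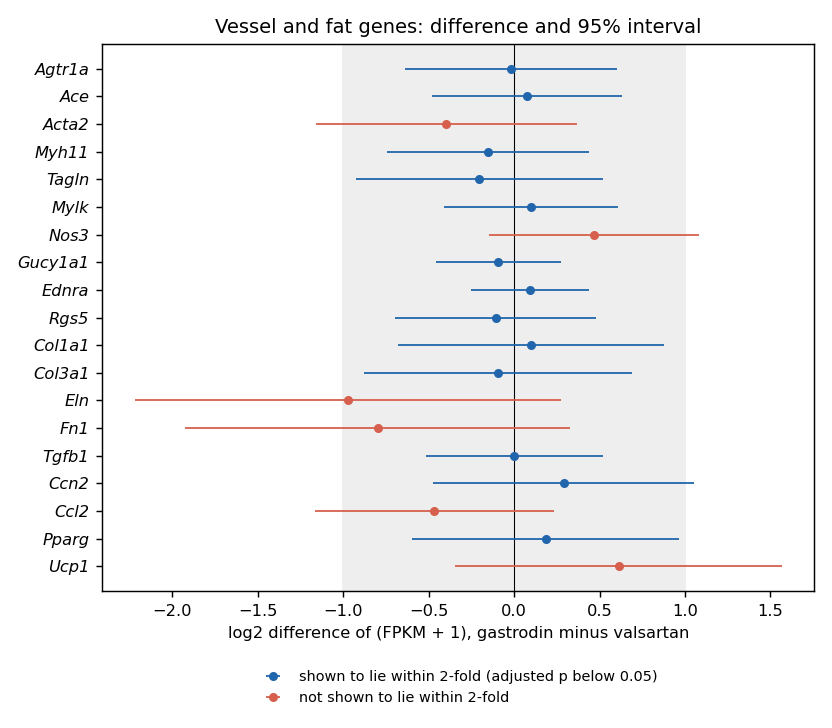
Difference between the groups (log2 of FPKM + 1, gastrodin minus valsartan, x) with its unadjusted 95% interval for 19 genes of the vessel and its fat. The grey band marks 2-fold, 13 genes (blue) were shown to lie within it by the one-sided tests, and all intervals include 0.

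Targets of the glucocorticoid and mineralocorticoid receptors leaned to higher values with gastrodin, with 12 of 16 higher and a median of 0.40. No member passed, and leaving out single libraries moved the median between 0.29 and 0.42. Sgk1, the kinase that keeps the epithelial sodium channel at the membrane, had 40.9, 39.6, 59.9, 50.4 and 57.8 FPKM with gastrodin and 45.4, 26.5, 27.6, 28.6 and 31.4 FPKM with valsartan. All gastrodin libraries were above 4 of the 5 valsartan libraries, the exception being valsartan library 1 (0.63, SE 0.18, adjusted p = 0.314), and the difference was shown to lie within 2-fold. Ddit4, an mTOR inhibitor induced by glucocorticoids, had 13.8 ± 5.15 and 6.82 ± 2.38 FPKM (0.91, adjusted p = 0.327). Pdk4, the most abundant member, did not share this (258 ± 134 and 251 ± 108 FPKM, -0.02).

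Immediate early genes were split, with 12 of 20 higher and a median of 0.09 (-0.10 to 0.27 on leaving out single libraries). Zfp36 (tristetraprolin), which speeds the decay of cytokine mRNAs, had 17.1, 28.4, 20.7, 15.3 and 15.5 FPKM with gastrodin and 1.24, 13.8, 1.40, 0.417 and 19.6 FPKM with valsartan. The valsartan libraries fell into low values in libraries 1, 3 and 4 and values near the gastrodin level in libraries 2 and 5 (2.08, SE 0.71, adjusted p = 0.529). One saline library was low as well, at 1.72 FPKM, while the other 4 saline and all 5 infusion-only libraries had 14.6 to 25.9 FPKM.

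Immune lists leaned to lower values with gastrodin, again with no member past the test. Interferon response genes were lower for 18 of 21 with a median of -0.26 (-0.38 to -0.10 on leaving out single libraries). The member with the smallest p was Rsad2 (viperin, an antiviral enzyme), at 3.39 ± 0.632 and 6.24 ± 2.26 FPKM (-0.67, adjusted p = 0.463). Inflammatory cytokines and adhesion genes were lower for 14 of 19 with a median of -0.28 (-0.40 to -0.20). They included the chemokines Cxcl12 (-0.28, shown to lie within 2-fold) and Ccl2, which was at the low levels of 0.842 ± 0.778 and 1.41 ± 0.590 FPKM (-0.47). Macrophage markers were lower for 11 of 12 with a median of -0.25, and 9 of the 11 at 5 FPKM or more were shown to lie within 2-fold. Leaving out single libraries gave 6 to 11 lower macrophage markers and medians of -0.43 to 0.02.

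B-cell markers were lower for 5 of 5 tested, with a median of -1.36 (-1.98 to -0.90 on leaving out single libraries) and no call. Igkc, the immunoglobulin kappa constant region, had 56.9, 1.07, 11.7, 0.337 and 13.4 FPKM with gastrodin and 10.1, 1217, 12.7, 36.7 and 219 FPKM with valsartan (-3.13, adjusted p = 0.805). Only valsartan libraries 2 and 5 exceeded all gastrodin libraries. The B-cell score was 5.45 and 4.76 in these libraries and 1.16 to 2.65 in all others of both groups.

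Blood cell markers were lower with gastrodin for 10 of 10 tested, with a median of -0.83 (-1.06 to -0.58 on leaving out single libraries) and no call. The beta-globin Hbb-bs ranged from 1088 to 5758 FPKM with gastrodin and from 2611 to 12356 FPKM with valsartan (-0.88, adjusted p = 0.936). The ranges overlapped, and the list holds genes of red cells and platelets only.

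No gene of fat or energy metabolism on the lists passed. Brown adipocyte markers were higher for 10 of 11 with a median of 0.29, and 5 of 10 at 5 FPKM or more were shown to lie within 2-fold. Leaving out single libraries gave medians from 0.08 (without gastrodin library 1) to 0.49 (without gastrodin library 5), with 0.12, 0.16 and 0.18 without valsartan 5, gastrodin 4 and valsartan 4 and 0.45 without gastrodin 2 or valsartan 1. It was 0.62 with array weights and 1.09 with the muscle score as a term, which cannot be told apart from the compound. Without gastrodin libraries 1 and 3 the median turned to -0.02, with 5 higher and 6 lower. Ucp1, the uncoupling protein of brown fat, had 3834, 1648, 2545, 2635 and 820 FPKM with gastrodin and 1982, 1892, 1537, 919 and 785 FPKM with valsartan. Gastrodin libraries 1, 3 and 4 were above all valsartan libraries, but library 5 was near the lowest (0.61, SE 0.43, adjusted p = 0.946, and 0.94 with adjusted p = 0.422 without library 5). Of 40 nuclear genes of oxidative phosphorylation, 37 were shown to lie within 2-fold. Among the 3 that were not was Atp5g1, which encodes the c-ring subunit of ATP synthase (21.2 ± 6.35 and 69.6 ± 25.5 FPKM, -1.64, SE 0.31, adjusted p = 0.0752), with no overlap between the groups. Without valsartan library 3 Atp5g1 passed (-1.85, adjusted p = 0.0248). Its values of 17.6, 24.2, 25.5, 11.8 and 26.9 FPKM with gastrodin and 91.5, 77.0, 36.3, 93.4 and 49.9 FPKM with valsartan placed libraries 1 and 4 highest and library 3 lowest in the valsartan group.

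Sterol and fatty acid synthesis genes were lower with gastrodin for 21 of 24 with a median of -0.31 (-0.39 to -0.19 on leaving out single libraries), while 15 of 21 members of at least 5 FPKM were shown to lie within 2-fold. Fdps, farnesyl diphosphate synthase, had 6.42, 4.32, 1.59, 9.81 and 14.9 FPKM with gastrodin and 26.2, 13.6, 8.77, 23.3 and 23.5 FPKM with valsartan. The ranges met only at gastrodin libraries 4 and 5 and valsartan libraries 2 and 3 (-1.41, SE 0.47, adjusted p = 0.510). Scd1, the most abundant member, was shown to lie within 2-fold (4748 ± 1282 and 4571 ± 1398 FPKM, 0.06). In fatty acid oxidation, Ppara, the nuclear receptor that drives the pathway, had 16.7 and 19.3 FPKM in gastrodin libraries 1 and 3 and 0.860 to 2.47 FPKM in the other 3, against 0.358 to 2.40 FPKM with valsartan (1.63, adjusted p = 0.733). Over the 28 genes of that list the median was 0.06 (-0.08 to 0.29 on leaving out single libraries).

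**Figure D5:**
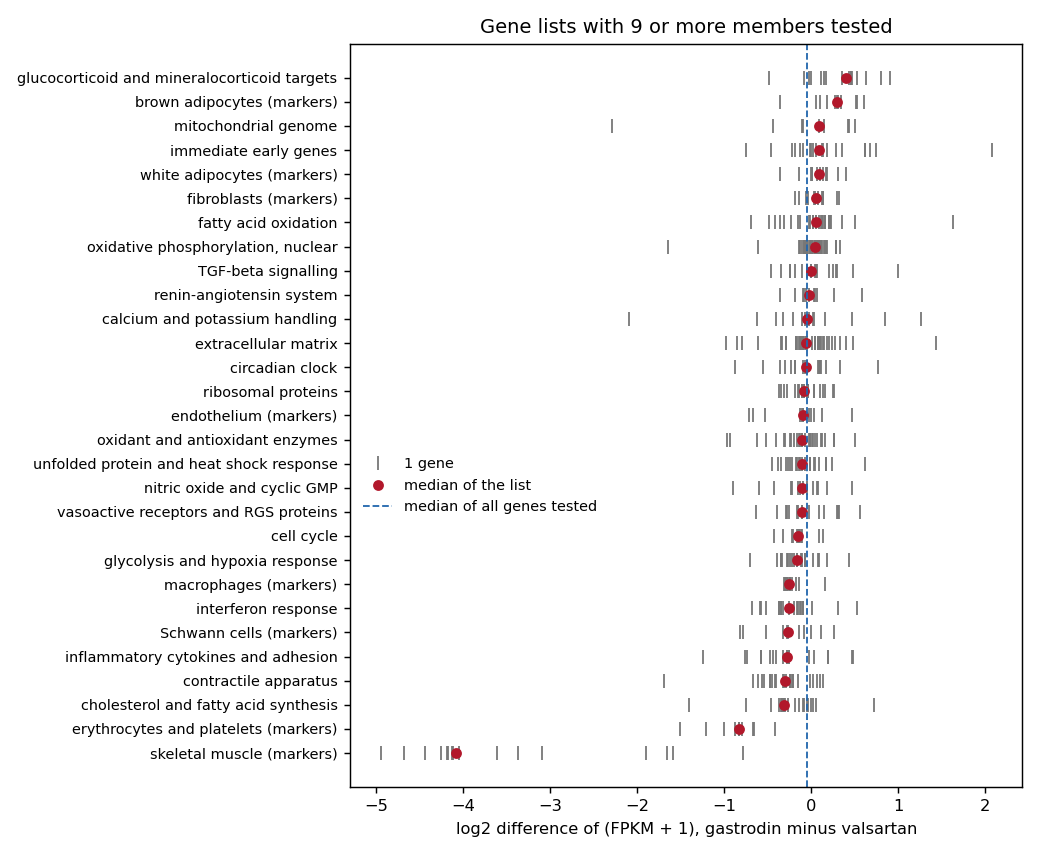
Differences between the groups (log2 of FPKM + 1, gastrodin minus valsartan, x) for the members of each gene list with at least 9 tested members (ticks) and the list median (red). Medians other than those of skeletal muscle (-4.08) and blood cell markers (-0.83) lie between -0.31 and 0.40, and the dashed line marks the median of all genes (-0.04).

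The 6 genes of at least 5 FPKM with the smallest p for lying within 2-fold (adjusted p = 6.88e-05 each, limma) were Nmt1, Atp6v1c1, Arfgef1, Zyg11b, Pias2 and Trim44. Nmt1, which attaches myristate to proteins, had 19.1 ± 0.521 and 19.5 ± 0.710 FPKM (-0.03, interval -0.22 to 0.16). Pias2, a SUMO ligase, had 9.19 ± 0.358 and 9.16 ± 0.460 FPKM (0.00, interval -0.20 to 0.20). Atp6v1c1, a subunit of the vacuolar proton pump, had 22.6 ± 1.0 and 23.0 ± 0.95 FPKM, and Arfgef1, an exchange factor for Arf GTPases, had 13.8 ± 0.804 and 13.8 ± 0.384 FPKM. Ribosomal protein genes lay within 2-fold for 21 of 22, although for Rps2 the ranges met without overlapping (226 to 351 and 351 to 439 FPKM, -0.37, adjusted p = 0.807).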

How the data were processed

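Total RNA of the abdominal aorta was depleted of ribosomal RNA and sequenced, per the labels' protocols. The authors deposited FPKM values per transcript; this unit was read from the values. The submitters' processing notes name mm10 and limma. Which aligner, assembler and quantifier were run is not given in the sources used here. Per the labels' protocols, the library kit does not mark strand, so overlapping genes and close paralogs are uncertain. Every transcript in each compound's list had a mean of at least 0.5 FPKM in that group or in AngII, with 0 exceptions. Whether every such transcript was listed could not be tested. Of 40441 transcripts listed for both groups, 28436 had Ensembl form, 28407 matched GENCODE M21 and were summed to 14489 genes. Another 12005 were assembled by the authors and carry no gene name. Low values were whole multiples of the value of 1 read (tolerance 0.1), which gave the depth. A floor of 3 reads in 2 kb was 0.0188 to 0.0205 FPKM, for counting error only.

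A gene entered the test when 5 or more of the 10 libraries reached 1 FPKM. The model was fitted on log2(FPKM + 1) with limma 3.58.1 in R 4.3.3 (trend, robust, 1 mean per group, two-sided), adjusted by Benjamini-Hochberg over all 11826 genes. A pair of one-sided tests against a log2 margin of 1 were adjusted likewise. Intervals are 95% and unadjusted. Libraries are numbered in accession order. The labels do not say that each library is 1 mouse, so p-values measure the spread between libraries. Named genes were, per direction, up to 12 called genes with non-overlapping ranges whose higher mean reached 5 FPKM, filled to 6 by smallest p. To these were added the 6 closest genes, 20 vascular genes (1 is not reported here), and the member of smallest p and the most abundant member of each list; other list members were picked after their values were seen. Members, lists and tests were chosen with earlier results of these data known. The script was tested on simulated data. Sums were made in Python 3.11.15 (pandas 2.3.3, numpy 2.4.6), and matplotlib 3.10.9 drew the figures.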

Additional observations from a re-analysis of the deposited data

Results flagged for a closer look

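In groups of 5, a library was marked when its gap to the nearest other exceeded 0.710 of the group's range. Of 126 groups tested, 17 were marked, and chance marks about 1 in 20.

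Gastrodin library 2 had a neuron marker score of 2.62 (0.496 to 0.646 in the other 4), an adrenal score of 1.20 and 6.63 FPKM of Nos3. Valsartan library 4 stood apart for the same lists, with a neuron score of 4.005 (0.428 to 1.24 in the others), an adrenal score of 1.68, 8.15 FPKM of Agtr1a (2.67 to 4.0 in the others) and 2.33 FPKM of Nos3 (1.42 to 1.49). Among these, the value of Agtr1a bears on the comparison of the receptor, since the other 4 valsartan libraries lay within the gastrodin range of 2.27 to 5.39 FPKM.

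Gastrodin library 5 had the highest contractile and fibronectin values of its group, with 7433 FPKM of Acta2, 861 FPKM of Myh11, 2729 FPKM of Tagln (800 to 1332 in the others) and 630 FPKM of Fn1 (116 to 197 in the others). Gastrodin library 3 had 4.43 FPKM of Actn3 (0.2 to 1.31 in the others).

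Valsartan library 1 was marked for 3 genes, with 53.2 FPKM of Actn3 (11.4 to 21.0 in the others), 6.13 FPKM of Klk1 and 5.00 FPKM of Cltrn. Valsartan library 5 had a T-cell score of 2.34 (0.819 to 1.08 in the others). Trim44 was marked in valsartan library 3 at 24.1 FPKM, only slightly above the 22.1 to 22.4 FPKM of the others. No explanation was tested for any of these.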

How the results depend on the processing

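The 5776 genes shown to lie within 2-fold became 5298 (voom) to 6486 (pseudocount of 5 FPKM, which shrinks differences) under the processing alternatives for genes. They became 5520 to 5690 on leaving out single libraries, and 1638 and 1793 with the muscle score, or muscle and kidney scores, as terms. For single transcripts, a different unit, it was 4745 of 7360. The counts of higher and lower genes (2 and 11) were less stable. They were 1 and 2 with a pseudocount of 0.1 FPKM, with TMM-style factors and for single transcripts, and 1 and 3 with quantile normalization or a filter at 5 FPKM. They were 1 and 5 with no filter, 2 and 17 without trend and robust fitting, and 5 and 51 with unlisted transcripts set to 0. They were 0 and 0 over all 30 libraries (700 genes at an unadjusted p below 0.05), with voom on estimated reads (721) and with the muscle (559) or muscle and kidney scores (620) as terms. Leaving out single libraries gave 0 to 3 higher and 0 to 70 lower. Without gastrodin libraries 1 and 3, chosen after seeing their muscle RNA, there were 6 and 49, a choice that by itself widens the muscle difference. The score terms were also added after seeing the data. The cause of the other changes was not tested. Array weights gave 3 and 16 (1549 genes at an unadjusted p below 0.05, against 743), a pseudocount of 5 FPKM 2 and 13, and rescaling without mitochondrial genes 2 and 11.

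Of 2795 values of 113 named genes under the alternatives, 182 (13 genes) lost the call and 8 (5 genes) gained it. Without a call in either fit, 50 values (28 genes) changed direction with a shift larger than the SE of the main fit. A change of direction with a call in either fit occurred for 0 values. The other 2555 kept their call status, and those without a call could still change direction by no more than that SE. At this depth 3 reads in 2 kb correspond to 0.0188 to 0.0205 FPKM. No paired analysis was possible because the labels give no replicate numbers.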

Other observations

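Transcripts listed for only one of the groups do not enter the gene sums. There were 1232 for gastrodin and 1274 for valsartan with a gene in the annotation, with medians of 0.62 and 0.668 for the mean FPKM of a transcript. Of the valsartan set, 36 had a mean of at least 5 FPKM and 71 were immunoglobulin gene segments, against 9 and 2 of the gastrodin set. The most abundant of these segments came from valsartan library 2, such as Ighv1-80 with 68.8 FPKM there and at most 4.21 FPKM in the other 4. The most abundant of the valsartan set were isoforms of the fast-muscle genes Myh1 (156 and 121 FPKM in libraries 1 and 2 and 0 in the other 3), Tnnt3 and Tnni2 (159 and 155 FPKM in library 2). In the gastrodin set, Acly was the most abundant, with 92.8 FPKM of its isoform in library 3 and under 0.5 FPKM in the others. Only 4 such transcripts, all listed for valsartan, had a mean of at least 5 FPKM and at least 1 FPKM in every library. They belong to the muscle genes Myot and Jsrp1, to Slc7a2 (cationic amino acid transporter 2, 4.10 to 6.94 FPKM) and to Ap1s2 (a subunit of the AP-1 clathrin adaptor, 3.52 to 6.4 FPKM). The transcripts of Slc7a2 shared by both lists had 2.86 ± 1.29 FPKM with gastrodin and 0.643 ± 0.162 with valsartan (1.18, limma adjusted p = 0.0665). That sum leaves out the isoform listed for valsartan alone, with a mean of 5.42 FPKM there. Its value with gastrodin is not listed. The listing rule above was tested on listed transcripts only, so it does not show that this mean was below 0.5 FPKM. Were it below that level, Slc7a2 as a whole would be higher with valsartan, but this could not be checked. The printed difference therefore does not describe the whole gene.

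The 12005 transcripts that the authors assembled outside the annotation gave the same picture in an analysis added after seeing the data. Of 5806 tested with limma, 2 were higher and 5 lower with gastrodin, 368 had an unadjusted p below 0.05, and the median difference was -0.03.

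In AngII library 2, given the infusion alone, the muscle genes that passed the test were not high together. Eno3 (60.5 FPKM), Pgam2 (58.4 FPKM), Itgb1bp2 (11.4 FPKM), Art1 (7.37 FPKM) and Unc45b (5.23 FPKM) reached the valsartan level there. The fast-fibre genes Myoz1 (0.0692 FPKM), Mybpc2 (0.720 FPKM) and Actn3 (0.305 FPKM) did not, whereas saline libraries 1 and 2 were within or above the valsartan range for all 8 genes, except Unc45b in library 1 at 2.04 FPKM. That library's kidney marker score was 0.19, the lowest of the 20 libraries shown.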
